A study of Mus musculus with 9 samples.

Results

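The mitochondrial ribosomal protein genes are named for the protein parts of the ribosome that works inside mitochondria. They were taken as every row of the deposited table of transcription start site (TSS) regions whose symbol is Mrpl or Mrps followed by digits, with a letter allowed. This gave 56 genes of 33844 regions, 33 with a large subunit symbol (Mrpl) and 23 with a small subunit symbol (Mrps). Membership rests on the symbol alone, and the presence of each protein in that ribosome was not checked. A further 4 rows whose symbols end in -ps, the mark of a pseudogene, were left out. RefSeq holds 78 symbols of this form, and the 22 of them that are not among the 56, Mrpl44 included, are not analysed here.

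The mitochondrial ribosome, or mitoribosome, translates the few messenger RNAs made from mitochondrial DNA, all of which encode membrane subunits of the respiratory chain and the ATP synthase. Its ribosomal RNAs come from mitochondrial DNA, while every one of its proteins is encoded in the nucleus, made in the cytosol and imported. Part of these proteins descend from the bacterial ribosome, and part were added in the course of mitochondrial evolution. Heart muscle depends on this translation because its contraction is fuelled mainly by respiration, and the mitochondria of mouse cardiomyocytes expand after birth.

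The libraries were made by ATAC-seq, which reads open chromatin from where a transposase can insert sequencing adapters. They came from CD1 (ICR) mice at postnatal day 1, 14 or 56 (P1, P14, P56), with 3 libraries a stage. Each library pooled 12 hearts at P1 and 6 to 7 hearts at P14 and P56, and nuclei were sorted on Pcm1, a protein of the cardiomyocyte nuclear envelope. No genotype or agent is named. The protocol for the hearts mentions an operation a few days before collection, and the labels do not say if it applied to these animals. In a pool of nuclei, a larger share of nuclei with an open site and a more open site in each nucleus cannot be told apart.

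Totals were 481217 to 2167369 TSS counts a library, and P14 was the shallowest stage. Values are CPM, which put all libraries on the same total after edgeR's TMM scaling. Raw counts of single genes in single libraries were 2 to 202, with a median of 48 at P1, 17 at P14 and 37 at P56, so counting error was largest at P14. The most counted 10% of TSS regions of each library held 32.6%, 33.4% and 32.7% of its counts at P1, 34.6%, 36.0% and 35.1% at P14, and 36.0%, 38.6% and 36.1% at P56. By this top share P56 replicate 2 stood apart. The 8 cardiomyocyte markers had a median of 52.6 to 306 CPM a library, above the median of all regions tested (18.1 to 20.5 CPM). Endothelial markers (30.1 to 45.9 CPM) and fibroblast markers (28.5 to 38.3 CPM) were above it in every library too. Medians were 19.4 to 25.2 CPM for leukocyte, 20.9 to 30.6 CPM for smooth muscle and pericyte, and 8.44 to 19.9 CPM for erythroid markers. None of the markers of other cell types was at 0.

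The genes share promoter features that do not depend on the libraries. RefSeq (GRCm38.p6) promoter windows, from 250 bases before to 50 bases after a start, were matched by symbol for 48 of the 56 genes, in 54 windows. Mrpl4 and Mrpl38 were not among them. The windows of the mitochondrial ribosomal protein genes had a median GC content of 57.8%, against 52.7% over all 32851 windows of the table. The ratio of observed to expected CpG was above 0.6, a usual mark of CpG islands, in 48 of 54 windows (88.9%), against 35.8% of all windows. The median ratio was 0.81 in the windows of these genes and 0.38 in all windows.

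Motifs were searched as exact letters on both strands, and matches of different motifs were allowed to overlap. The core bound by ETS factors such as GABP, CCGGAAG, was found in 17 windows of these genes (31.5%), against 8.86% of all windows. The core bound by nuclear respiratory factor 1 (NRF1), GCGCANGCG, was found in 10 windows (18.5%), against 6.25% of all windows. The site of the zinc finger factor YY1, AAGATGGCG, was found in 6 windows (11.1%), against 1.4% of all windows. At least 1 of these 3 motifs stood in 28 windows. All 3 contain CpG, in which the windows of these genes are richer than all windows. No comparison with windows of like CpG content was made. GABP, NRF1 and YY1 are known to bind nuclear genes for mitochondrial proteins.

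General promoter elements were searched too. The GC box of SP1, GGGCGG, stood in 27 of the 54 windows of these genes and 35.7% of all windows, and the CCAAT box in 44.4% of the windows of these genes and 37.4% of all windows. The TATA box, TATAAA, stood in 7.41% of the windows of these genes and 13.6% of all windows, and the E-box CACGTG in 13.0% of the windows of these genes and 7.15% of all windows. A match describes the letters in the window only, and factor binding was not measured.

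**Figure D1:**
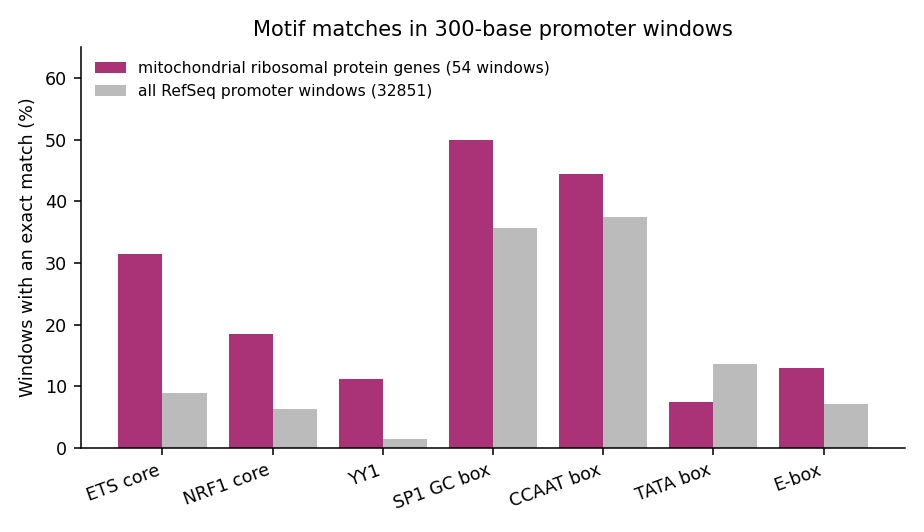
Share of 300-base promoter windows (y axis, percent) with an exact match to each motif (x axis), for the windows of mitochondrial ribosomal protein genes (54, left bars) and all RefSeq windows (32851, right bars). In the windows of these genes the ETS core stood in 31.5% and the YY1 site in 11.1%, while the TATA box was less frequent there (7.41%) than in all windows (13.6%).

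The YY1 sites are shown because the same letters recur at nearly the same place. In 5 of the 6 genes the site lay just downstream of the start, between base 12 and base 45 of the transcript, and in Mrpl36 it lay upstream in reverse complement, from 31 to 23 bases before the start. Capitals mark the match, with up to 10 flanking bases on each side, 5′ to 3′ on the strand of the gene.
Mrps18a: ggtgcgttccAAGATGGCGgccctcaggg
Mrpl35: ggcaggctgcAAGATGGCGgcttccatct
Mrpl37: tgcacgggcaAAGATGGCGgcgtccaggt
Mrpl42: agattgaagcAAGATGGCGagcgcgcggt
Mrps24: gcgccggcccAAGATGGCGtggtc
Mrpl36: cgtgaccttaCGCCATCTTtcttcctggc

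The upstream sequences of 4 genes are given because they had the smallest p between P56 and P1 among genes with a window. Capitals mark an ETS core in Mrps18a, from 26 to 20 bases before the start, and an NRF1 core in reverse complement near the far end of the sequence of Mrps18b. Upstream of Mrpl20 and Mrps24 neither core was found. They lie on GRCm38.p6 chr17:46110754-46111003 (Mrps18a, plus strand), chr4:155802628-155802877 (Mrpl20, plus strand), chr11:5707702-5707951 (Mrps24, minus strand) and chr17:35916441-35916690 (Mrps18b, minus strand).
Mrps18a: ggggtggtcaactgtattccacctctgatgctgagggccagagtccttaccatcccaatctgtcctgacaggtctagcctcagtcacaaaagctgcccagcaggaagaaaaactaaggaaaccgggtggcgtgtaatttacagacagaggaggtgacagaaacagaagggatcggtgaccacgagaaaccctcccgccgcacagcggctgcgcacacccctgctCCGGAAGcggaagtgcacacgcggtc
Mrpl20: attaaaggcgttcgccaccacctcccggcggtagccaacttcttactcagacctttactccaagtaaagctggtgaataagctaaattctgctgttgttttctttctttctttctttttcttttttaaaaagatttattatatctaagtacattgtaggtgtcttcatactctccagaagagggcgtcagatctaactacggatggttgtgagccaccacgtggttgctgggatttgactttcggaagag
Mrps24: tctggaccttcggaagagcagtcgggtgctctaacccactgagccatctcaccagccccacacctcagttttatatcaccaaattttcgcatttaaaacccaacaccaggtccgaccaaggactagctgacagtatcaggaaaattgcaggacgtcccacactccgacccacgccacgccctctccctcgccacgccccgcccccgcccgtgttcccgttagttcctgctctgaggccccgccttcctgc
Mrps18b: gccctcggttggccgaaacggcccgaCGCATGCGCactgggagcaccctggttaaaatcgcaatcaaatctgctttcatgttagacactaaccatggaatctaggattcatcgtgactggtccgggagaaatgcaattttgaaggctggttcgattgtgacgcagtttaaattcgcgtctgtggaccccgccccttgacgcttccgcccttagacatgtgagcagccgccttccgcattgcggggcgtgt

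Those of 2 genes with nearly the same accessibility at P56 and P1 are set beside them. The sequence of Mrps12 (chr7:28741822-28741967, minus strand) covers the 146 bases between its start and that of the divergent gene Sars2. It holds neither core, but an ETS core begins at base 2 of the transcript. That of Mrpl52 (chr14:54426659-54426908, plus strand) has an ETS core in reverse complement, in capitals, from 47 to 41 bases before the start.
Mrps12: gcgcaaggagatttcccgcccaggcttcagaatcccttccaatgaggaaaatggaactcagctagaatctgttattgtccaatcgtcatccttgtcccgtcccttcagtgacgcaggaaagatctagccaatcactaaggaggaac
Mrpl52: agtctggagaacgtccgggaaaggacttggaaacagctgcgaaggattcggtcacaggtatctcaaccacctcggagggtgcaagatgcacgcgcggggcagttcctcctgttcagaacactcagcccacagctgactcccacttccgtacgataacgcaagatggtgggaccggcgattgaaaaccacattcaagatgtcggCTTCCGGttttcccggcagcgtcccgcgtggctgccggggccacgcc

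The TSS regions of these genes held more counts than most. All 56 passed the filter on low counts, as did 33747 of the 33844 regions. Of the 56 genes, 47 had a mean CPM above the median of all TSS regions. The width of the regions is not stated, so levels are per region and not per base. Mrps18a (84.5 CPM over the 9 libraries), Mrpl23 (81.8), Mrps10 (67.8) and Mrpl38 (67.7) had the highest means. Mrps18c (8.65 CPM), Mrps31 (8.70) and Mrpl13 (9.88) had the lowest. Mrps18a, Mrps18b and Mrps18c are the 3 mammalian relatives of 1 bacterial protein, S18. Members of this small family thus stood at both ends of the range of TSS levels. That range does not rank the openness of promoters. A separate count over peaks had a peak across the start of Mrps18c and none within 1 kb of the start of Mrps18a.

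Comparing P56 with P1 asked which of these promoters differ between the adult and the newborn cardiomyocyte. Most of the 56 genes had a higher fitted value at P56, by a small amount. A log2 change above 0 was found for 48 genes, and the median change was 0.42, or 1.33-fold, against -0.01 over all 33747 regions tested. The sign of this median was the same under the 4 other scalings tried and turned with each library's top share as a covariate (-0.42). Only Mrps18a and Mrpl4 passed the test (edgeR quasi-likelihood, Benjamini-Hochberg adjusted p below 0.05 over all regions), both higher at P56, and 0 genes were lower. That is 3.57% of the genes, near the 2.53% of all regions called in either direction (1.72% called higher), so the count of calls does not set these genes apart.

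**Figure D2:**
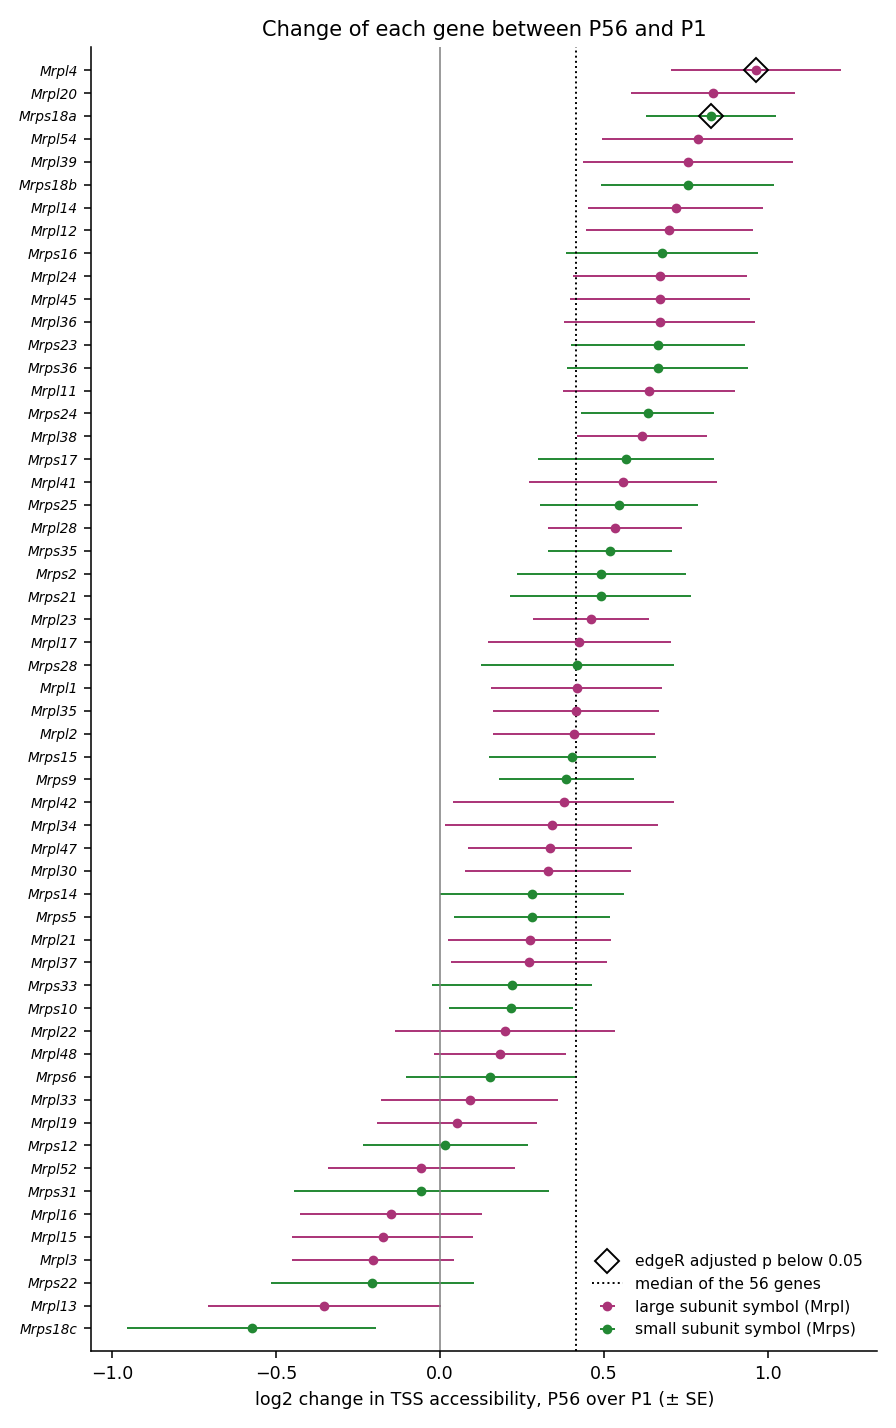
Log2 change in TSS accessibility, P56 over P1, of each of the 56 genes (x axis, points with the standard error of the fit), sorted by size and coloured by the subunit in the symbol. The dotted line is their median (0.42, but -0.42 with the top share as a covariate), 48 of 56 points lie right of 0, and diamonds mark Mrpl4 and Mrps18a.

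Mrps18a (ENSMUSG00000023967, GRCm38 chromosome 17, 46111004 to 46128908) had the highest mean CPM per TSS region of the 56. Its protein is a bacterial S18 relative that sits in the large subunit in structures of mammalian mitoribosomes, despite its symbol. It had 59.5, 77.4 and 54.6 CPM in the P1 libraries, 68.9, 90.7 and 73.8 CPM in the P14 libraries, and 85.4, 152 and 97.9 CPM in the P56 libraries. Every P56 library was above every P1 library, and P56 replicate 2 was far above the rest. The region rose 1.77-fold at P56 relative to P1, a log2 change of 0.83 ± 0.198 (SE, edgeR adjusted p = 0.0243). Without P56 replicate 2 the log2 change was 0.53 and the call was lost (adjusted p = 0.160). The call was also lost without P1 replicate 1 (0.77, adjusted p = 0.0733) and without P1 replicate 3 (0.73, 0.0643).

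Mrpl4 (ENSMUSG00000003299, chromosome 9, 21001252 to 21008839) encodes the relative of bacterial L4, which lines the tunnel where the new chain leaves. It had 12.6, 15.8 and 20.5 CPM in the P1 libraries, 23.3, 27.4 and 22.5 CPM in the P14 libraries, and 24.7, 34.6 and 36.1 CPM in the P56 libraries. Each later stage lay wholly above P1, with P14 and P56 overlapping. It rose 1.95-fold at P56 relative to P1 (log2 0.96 ± 0.260 SE, edgeR adjusted p = 0.0404), resting on 23 to 46 counts in each P1 and P56 library. Its change was 0.77 to 1.17 when single libraries were left out, and the call held only without P1 replicate 3 or without P56 replicate 1. It was lost without P1 replicate 1 (0.77), P1 replicate 2 (0.94), P56 replicate 2 (0.88), P56 replicate 3 (0.88) and each of P14 replicates 1, 2 and 3 (0.97 each), at adjusted p between 0.0566 and 0.164.

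The next smallest p-values belonged to genes that did not pass. Mrpl20 (ENSMUSG00000029066, chromosome 4, 155802878 to 155808831), relative of bacterial L20, a protein of early large subunit assembly in bacteria, had 37.9, 56.4 and 32.6 CPM at P56 against 20.9, 26.0 and 25.7 CPM at P1. Its log2 difference was 0.83 ± 0.251 (SE, edgeR adjusted p = 0.063). Mrps24, relative of bacterial S3 at the entry of the messenger RNA, had 71.4, 94.1 and 66.4 CPM at P56 against 47.8, 54.8 and 48.3 CPM at P1 (log2 0.63 ± 0.201, adjusted p = 0.0746). In both genes the stages did not overlap.

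Mrpl38 and Mrps18b stood close behind. Mrpl38, a large subunit protein without a bacterial relative, had 73.1, 102 and 73.4 CPM at P56 against 43.9, 58.9 and 60.9 CPM at P1 (log2 0.62 ± 0.198, adjusted p = 0.0772). Mrps18b had 22.0, 45.1 and 37.3 CPM at P56 against 22.6, 18.5 and 20.5 CPM at P1, and here P56 replicate 1 fell inside the P1 range (log2 0.76 ± 0.265, adjusted p = 0.101). Without P56 replicate 1, Mrpl20, Mrps18b and Mrpl12 were called beside Mrps18a and Mrpl4, which made 5 calls. The share of all regions called in that fit is not given here, so this count does not set the genes apart.

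**Figure D3:**
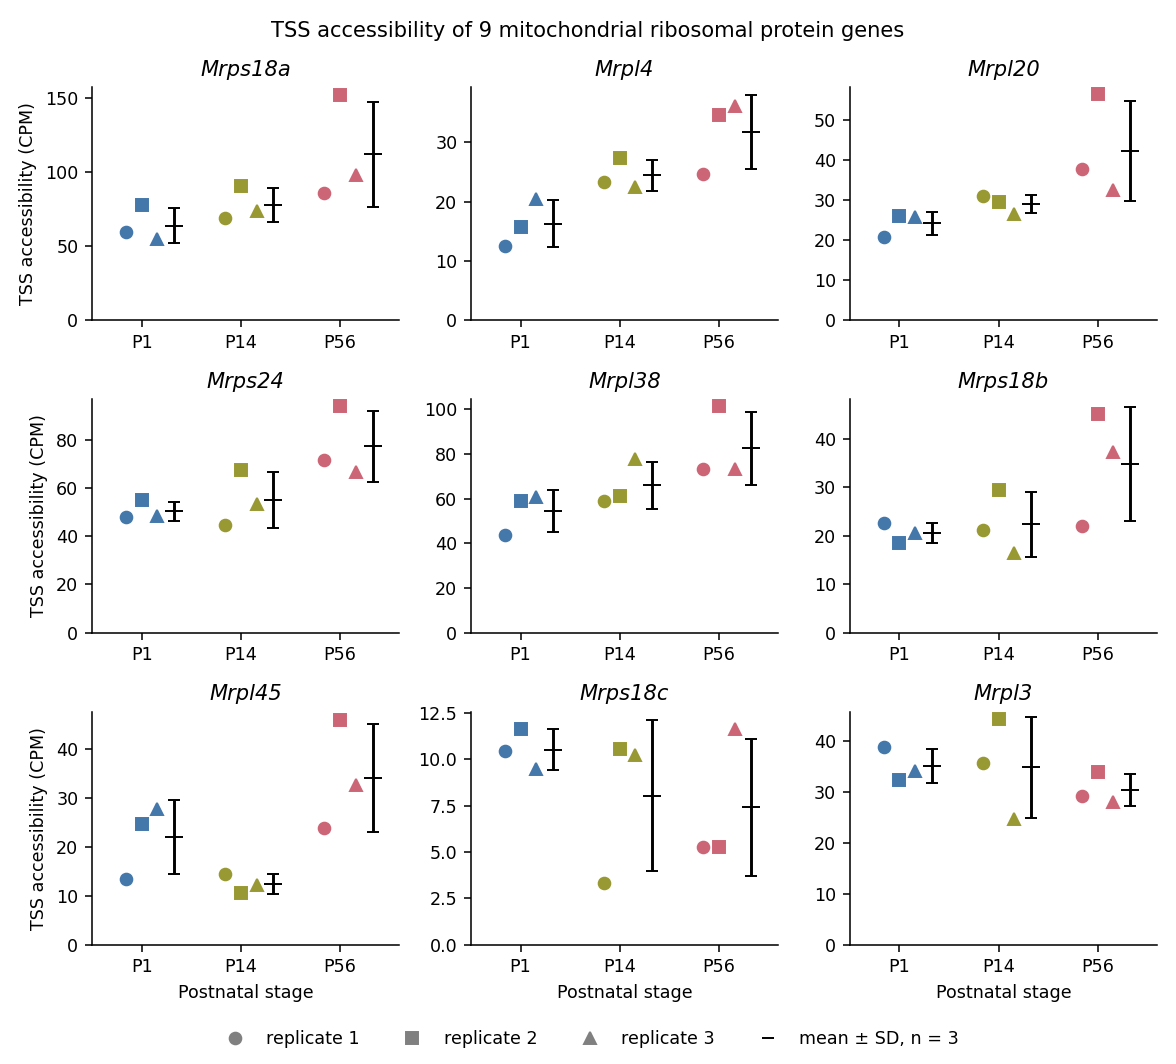
TSS accessibility in CPM (y axis) of 9 genes in each library (points, shaped by replicate) at P1, P14 and P56 (x axis), with the mean and SD of 3 libraries beside them. Mrps18a reached 152 CPM in P56 replicate 2, Mrpl45 was at 10.5 to 14.4 CPM in the P14 libraries, and Mrps18c and Mrpl3 overlapped between stages.

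At an unadjusted p below 0.05 in the same test, 22 of the 56 genes (39.3%) were higher at P56 and 0 were lower. Over all regions 11.3% were higher and 10.3% were lower at that threshold. In 11 of the 56 (19.6%) every P56 library was above every P1 library, against 10.9% of all regions, and in 0 genes was every P56 library below every P1 library, against 13.2% of all regions. The 11 were Mrps18a, Mrpl4, Mrpl20, Mrps24, Mrpl38, Mrps35, Mrpl14, Mrpl28, Mrpl23, Mrpl11 and Mrps25.

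Among those, Mrps35, a small subunit protein, had 80.2, 99.3 and 69.9 CPM at P56 against 53.0, 59.6 and 63.0 CPM at P1. Mrpl23, relative of bacterial L23 at the tunnel exit, had 106, 98.6 and 80.4 CPM at P56 against 64.7, 75.4 and 68.3 CPM at P1. Mrpl28, relative of bacterial L28, had 59.0, 87.3 and 60.6 CPM at P56 against 49.97, 46.6 and 47.3 CPM at P1. In each of these genes P56 lay wholly above P1. Their log2 changes were 0.52, 0.46 and 0.53, at adjusted p between 0.111 and 0.132.

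The other side held few genes with small differences. Mrps18c, the S18 relative of the small subunit, had 5.29, 5.27 and 11.7 CPM at P56 against 10.4, 11.6 and 9.45 CPM at P1 (log2 -0.57 ± 0.38 SE, edgeR adjusted p = 0.382). Mrpl13, relative of bacterial L13, had 5.29, 9.78 and 12.8 CPM at P56 against 14.8, 12.3 and 7.35 CPM at P1 (log2 -0.35). In the peaks at the same 2 genes the sign was the other one, with 0.27 ± 0.364 at Mrps18c and 0.46 ± 0.368 at Mrpl13. Both TSS values rest on 6 to 34 counts in each P56 and P1 library, and the stages overlapped. Mrpl3 (-0.20), Mrps22 (-0.21), Mrpl15 (-0.17) and Mrpl16 (-0.15) were the others with the smallest p below 0. Without P1 replicate 3 the change was 0.05 for Mrps22 and 0.03 for Mrpl15, and without P56 replicate 3 it was 0.03 for Mrps22 and 0.01 for Mrpl15, so the sign of both turned.

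Mrpl3, near the site where peptide bonds are made, and Mrps22, a small subunit protein, are genes whose human forms are linked to disease with heart involvement. Mrpl3 had 29.1, 33.9 and 28.0 CPM at P56 against 38.7, 32.2 and 34.1 CPM at P1, and Mrps22 had 18.5, 21.8 and 9.32 CPM at P56 against 17.8, 15.1 and 26.3 CPM at P1. In both genes the stages overlapped. Mrpl12, the stalk protein that contacts translation factors, had 41.4, 92.6 and 51.3 CPM at P56 against 29.5, 39.7 and 46.7 CPM at P1 (log2 0.70 ± 0.255, edgeR adjusted p = 0.112), with the highest value in P56 replicate 2. Without that library its change was 0.26, and with the top share as a covariate it was -0.93. Mrps12, at the decoding site, had 21.1, 24.1 and 26.8 CPM at P56 against 23.9, 26.7 and 20.5 CPM at P1 (log2 0.02 ± 0.251). Mrps5, relative of bacterial S5, had 44.9, 53.4 and 47.8 CPM at P56 against 54.3, 32.9 and 32.0 CPM at P1 (log2 0.28 ± 0.238). For none of these did the test pass.

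The 2 groups of symbols gave like values. Among 33 genes with a large subunit symbol, 28 had a change above 0, the median was 0.41 and Mrpl4 was called. Among 23 with a small subunit symbol, 20 had a change above 0, the median was 0.42 and Mrps18a was called. The Mrps18a protein sits in the large subunit, so by place in the mitoribosome both called genes belong to the large subunit. Split by origin, 40 genes with a bacterial relative had a median of 0.41 and 2 calls, and 16 without a listed relative had a median of 0.53 and 0 calls, with 8 of the 16 at an unadjusted p below 0.05. No difference between these groups was tested. By motif, the median was 0.22 in the 17 genes with an ETS core and 0.46 in genes with a window and no such core. It was 0.58 in the 10 genes with an NRF1 core and 0.39 in those without, and 0.52 in the 6 genes with a YY1 site and 0.41 in those without.

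P56 replicate 2 held most of the highest values. Of the 56 genes, 39 (69.6%) had their highest value of all 9 libraries there and 0 their lowest, while 20.7% of all regions had their highest and 16.1% their lowest value there. P1 replicate 1 held the lowest value of 15 genes. The median CPM of the 56 genes was 22.8, 26.0 and 29.1 in the P1 libraries, 26.1, 27.4 and 26.6 in the P14 libraries, and 29.1, 45.9 and 30.9 in the P56 libraries. So P56 replicate 1 was level with P1 replicate 3. Without P56 replicate 2 the median log2 change was 0.21 with 43 genes above 0 and 0 calls, and without both P56 replicate 2 and P1 replicate 1 it was 0.11 with 36 above 0 and 0 calls.

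**Figure D4:**
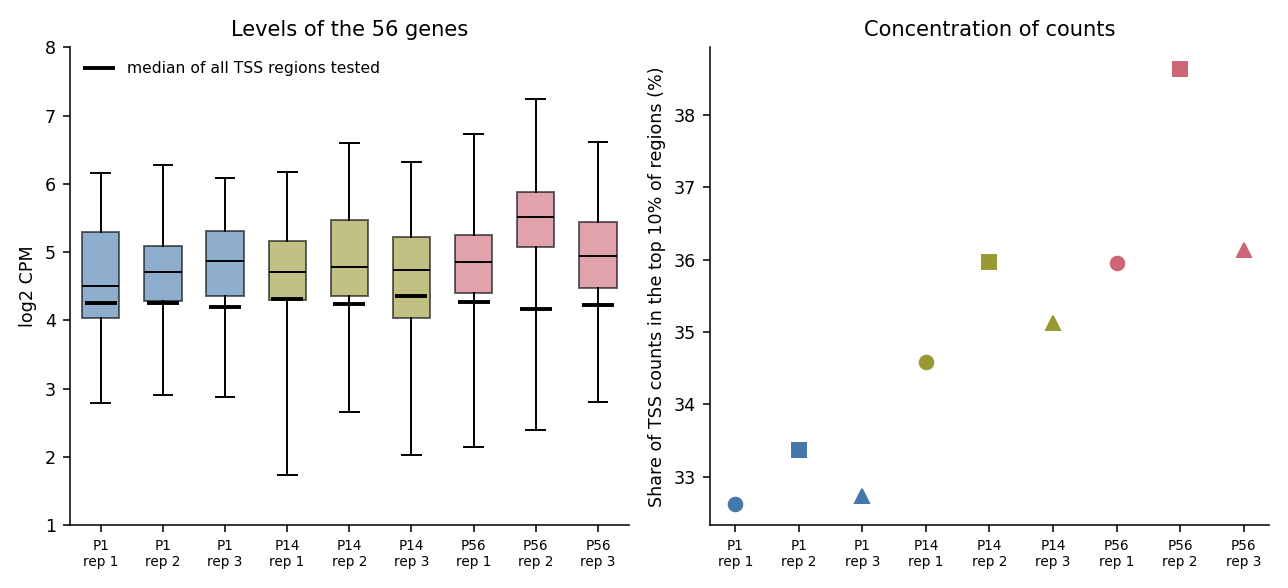
Left, log2 CPM of the 56 genes in each library (boxes, quartiles with the median; whiskers, lowest and highest gene) with the median of all TSS regions tested (heavy bars). Right, the top share of each library (percent of TSS counts in its most counted 10% of regions, axis not from 0): P56 replicate 2 has the highest gene median (45.9 CPM) and the highest share (38.6%).

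The top share differed between stages. At P14 it was 34.6%, 36.0% and 35.1%, above every P1 library, while the median change of these genes relative to P1 was 0.01. At P56 the share was 36.0% to 38.6%, against 32.6% to 33.4% at P1, with no overlap. With the share as a covariate the median change of the 56 genes between P56 and P1 was -0.42, with 13 genes above 0. In that fit 0 were called, and Mrps18a had a log2 change of -0.45 (edgeR adjusted p = 0.782). P56 and P1 cannot be told apart from high and low share in these libraries. Loess offsets, which remove each library's trend with abundance, left a median of 0.27 with 44 above 0 and 0 calls.

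Markers of heart muscle moved the same way. Of 8 cardiomyocyte markers 5 rose between P1 and P56, with a median change of 0.87, and their summed level was 893, 2227 and 1173 CPM at P56 and 465, 809 and 1021 CPM at P1. The stages overlapped, and P56 replicate 2 was far above the rest. Of the endothelial, fibroblast, leukocyte, smooth muscle and erythroid markers 0 were called by edgeR, and at an unadjusted p below 0.05 1 of 6, 3 of 6, 1 of 6, 2 of 6 and 1 of 5 of them differed, where 21.6% of all regions did. Summed levels were 276 to 310 CPM at P56 and 282 to 358 CPM at P1 for endothelial markers, and 238 to 263 CPM at P56 and 241 to 279 CPM at P1 for fibroblast markers. Both overlapped between the stages. Levels were 148 to 156 CPM at P56 and 133 to 160 CPM at P1 for leukocyte markers, and 154 to 175 CPM at P56 and 131 to 145 CPM at P1 for smooth muscle and pericyte markers, which did not overlap. Erythroid markers summed to 79.8 to 89.9 CPM at P56 and 78.2 to 99.4 CPM at P1. The part of these in the change of the mitochondrial ribosomal protein genes was not tested.

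The cytosolic ribosome's genes gave nearly the same values. Of 59 cytosolic ribosomal protein genes 2 rose and 0 fell between P1 and P56, 50 had a change above 0 and the median was 0.43. At an unadjusted p below 0.05, 22 were higher and 1 lower. Their median CPM was 26.4, 42.9 and 29.1 in the P56 libraries against 18.3, 24.0 and 27.8 CPM in the P1 libraries, so P56 replicate 2 stood apart here too.

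Genes around the mitoribosome were described from lists. Of 5 measured mitoribosomal proteins under other symbols, 0 were called at P56 relative to P1, all 5 were above 0 and the median was 0.51. These are parts of the mitoribosome whose symbols do not start with Mrp. Aurkaip1, a small subunit protein, came closest, with 43.2, 63.2 and 43.1 CPM at P56 against 22.2, 31.5 and 28.9 CPM at P1 (log2 0.88 ± 0.252 SE, edgeR adjusted p = 0.0529). Of 12 translation factors 0 were called, 9 were above 0 and the median was 0.21. Tufm, the elongation factor that brings transfer RNAs to the mitoribosome, had 63.4, 86.5 and 64.1 CPM at P56 against 34.8, 49.3 and 47.8 CPM at P1 (log2 0.72, adjusted p = 0.0622).

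Of 19 measured genes for mitoribosome assembly and ribosomal RNA modification 1 rose, where 1.72% of all regions did, and the median was 0.22. That gene was Mrm1, a methyltransferase of the mitochondrial large ribosomal RNA, with 111, 184 and 115 CPM at P56 against 53.9, 72.0 and 82.4 CPM at P1 (log2 1.00 ± 0.194 SE, edgeR adjusted p = 0.00711). Without P56 replicate 2 its change was 0.71 and the call was lost (adjusted p = 0.0512), as it was without both that library and P1 replicate 1 (0.53, 0.0693). With the top share as a covariate its change was -0.16. The remaining lists hold enzymes and factors that act before or beside translation. Of 16 genes listed for aminoacyl-tRNA synthetases of mitochondria 0 were called, 12 were above 0 and the median was 0.19. The 16 include Qrsl1, which encodes an amidotransferase subunit and not a synthetase. Of 15 genes for transcription and replication of mitochondrial DNA 0 were called, all 15 were above 0 and the median was 0.33. Of 11 genes for factors that bind or coactivate such promoters, among them Nrf1, Gabpa and Yy1, 0 were called and the median was 0.20. At an unadjusted p below 0.05, 21.6% of all regions differed. Of the listed genes, 3 of the proteins under other symbols, 2 translation factors and 4 assembly and modification genes did. So did 3 genes of the synthetase list, 5 of the transcription and replication genes and 3 of the factors. Among the translation factors and the synthetase list the share was below that of all regions. Among the assembly and modification genes it was near, at 21.1%.

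Comparing P14 with P1 asked what differed after the first weeks of life. The median log2 change of the 56 genes was 0.01, and with the top share as a covariate it was -0.43. In the fit without it 30 genes were above 0 and 0 were called by edgeR, DESeq2 or limma-voom, where edgeR called 0.0119% of all regions. At an unadjusted p below 0.05 edgeR had 1 gene higher and 0 lower, against 4.92% of all regions higher and 3.67% lower. In 4 genes (7.14%), Mrpl4, Mrpl20, Mrpl28 and Mrpl35, every P14 library was above every P1 library, against 9.02% of all regions.

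Mrpl28 had 55.5, 78.0 and 67.6 CPM at P14 against 49.97, 46.6 and 47.3 CPM at P1 (log2 0.46 ± 0.221 SE, edgeR adjusted p = 0.574). Mrpl4 had 0.58 ± 0.305 and Mrps21, relative of bacterial S21, had 0.46 ± 0.313. The smallest p below 0 belonged to Mrpl45, which helps to hold the mitoribosome at the inner membrane in human cells, with 14.4, 10.5 and 12.3 CPM at P14 against 13.5, 24.7 and 27.8 CPM at P1 (log2 -0.75 ± 0.374, adjusted p = 0.584). Mrps15 (-0.43) and Mrpl34 (-0.53), relatives of bacterial S15 and L34, followed. These P14 values rest on 5 to 50 counts a library.

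Comparing P56 with P14 covered the weeks from then to the adult. The median log2 change was 0.37, but 0.16 without P56 replicate 2 and -0.010 with the top share as a covariate. With all libraries and no covariate 48 genes were above 0, and 0 were called by edgeR, DESeq2 or limma-voom, where edgeR called 0.00296% of all regions. At an unadjusted p below 0.05 edgeR had 14 genes higher and 0 lower, against 6.04% of all regions higher and 4.04% lower. In 6 genes (10.7%), Mrpl20, Mrps35, Mrpl14, Mrpl45, Mrps17 and Mrps15, every P56 library was above every P14 library, against 7.00% of all regions. P14 is shared by this comparison and the previous one, so a low value at P14 enters both.

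Mrpl45 differed most, with 23.8, 45.9 and 32.6 CPM at P56 against 14.4, 10.5 and 12.3 CPM at P14. All P56 libraries were above all P14 libraries, and the log2 difference was 1.42 ± 0.367 (SE, edgeR adjusted p = 0.275), on 5 to 13 counts at P14. Without P56 replicate 1 it was 1.62 and was called (adjusted p = 0.0454). Mrps35 had 0.62 ± 0.212 and Mrps9, relative of bacterial S9, had 0.64 ± 0.236. Below 0, Mrpl52 (-0.47 ± 0.330), Mrpl16 (-0.40 ± 0.332) and Mrpl3 (-0.19 ± 0.282) had the smallest p, and none passed.

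The peak table gives a separate count over called peaks. Within 1 kb of the start of 39 of the 56 genes lay 41 peaks, 799 to 3471 bases wide. Of these, 7 were placed by either gene end because no strand was known. The called genes Mrps18a and Mrpl4 were not among the 39, so the peaks give no value for either. Of the 41, 37 were higher at P56 than at P1 in the fit, with a median log2 change of 0.35, against 0.03 over all peaks. By edgeR 0 were called, where 0.444% of all peaks were, DESeq2 and limma-voom called 0 too, and 3 of the 41 had an unadjusted p below 0.05, against 4151 of the 25885 peaks tested.

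The smallest p was that of the peak at Mrps35 (GRCm38 chromosome 6, 147042169 to 147043570), with 38.1, 52.8 and 38.4 CPM at P56 against 17.3, 24.4 and 33.6 CPM at P1 (log2 0.79 ± 0.324 SE, edgeR adjusted p = 0.211). All 3 P56 libraries were above all P1 libraries. The peak at Mrpl20 (chromosome 4, 155802977 to 155804895) had 46.0, 60.3 and 40.1 CPM at P56 against 26.3, 33.3 and 31.9 CPM at P1 (log2 0.70 ± 0.298). The peaks at Mrpl11 (0.70), Mrpl38 (0.55) and Mrps25 (0.61) came next. Each of these 5 genes also had no overlap between P56 and P1 at the TSS. The peak and TSS tables count the same libraries, so they are not independent. Without both P1 replicate 1 and P56 replicate 2, 1 peak was called, lower at P56, at the shared promoter of Mrpl48 and Rab6a (log2 -0.88 ± 0.255, edgeR adjusted p = 0.0319), where 1.18% of all peaks were called lower. With all libraries its change was -0.34.

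Between P14 and P1, 16 of the 41 peaks were above 0, the median was -0.11 and 0 were called by edgeR, where 0.00773% of all peaks were. At an unadjusted p below 0.05 there were 2, against 6.04% of all peaks. The peak at Mrpl34 (chromosome 8, 71462520 to 71465762) had 73.7, 96.5 and 82.1 CPM at P14 against 74.9, 149.8 and 156 CPM at P1 (log2 -0.60 ± 0.279 SE, edgeR adjusted p = 0.791). P1 replicate 1 lay at the low end of the P14 range, and the other P1 libraries lay above it. Without both P1 replicate 1 and P56 replicate 2 this peak was called lower at P14 (log2 -0.88 ± 0.206, adjusted p = 0.00387), where 1.87% of all peaks were called lower. Between P56 and P14, 39 of the 41 peaks were above 0, the median was 0.43 and 0 were called, with 8 at an unadjusted p below 0.05, against 14.7% of all peaks.

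Some TSS regions lie beside a second gene. A start was known for 48 of the 56 genes. For 13 of the 48 another protein-coding start lay within 1 kb, head to head in 11, and the counts carry no strand. Mrps18b and Ppp1r10, a phosphatase regulator, start 756 bp apart, and Ppp1r10 had a log2 change of 0.58 ± 0.263 (SE) between P1 and P56, beside 0.76 for Mrps18b. Mrpl14 and Tmem63b, an ion channel, start 131 bp apart, with 0.24 ± 0.176 for Tmem63b and 0.72 for Mrpl14. Mrps18c and Helq, a DNA helicase, start 159 bp apart, with -0.37 ± 0.192 for Helq and -0.57 for Mrps18c. Counts of such pairs were not the same: those of Mrps18c were 0.0435 to 0.208 of those of Helq, and those of Mrpl48 were 4 to 15 times those of Rab6a, 36 bp away. Mrps18a had no such neighbour, and Mrpl4 was among the 8 genes for which this was not assessed.

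**Figure D5:**
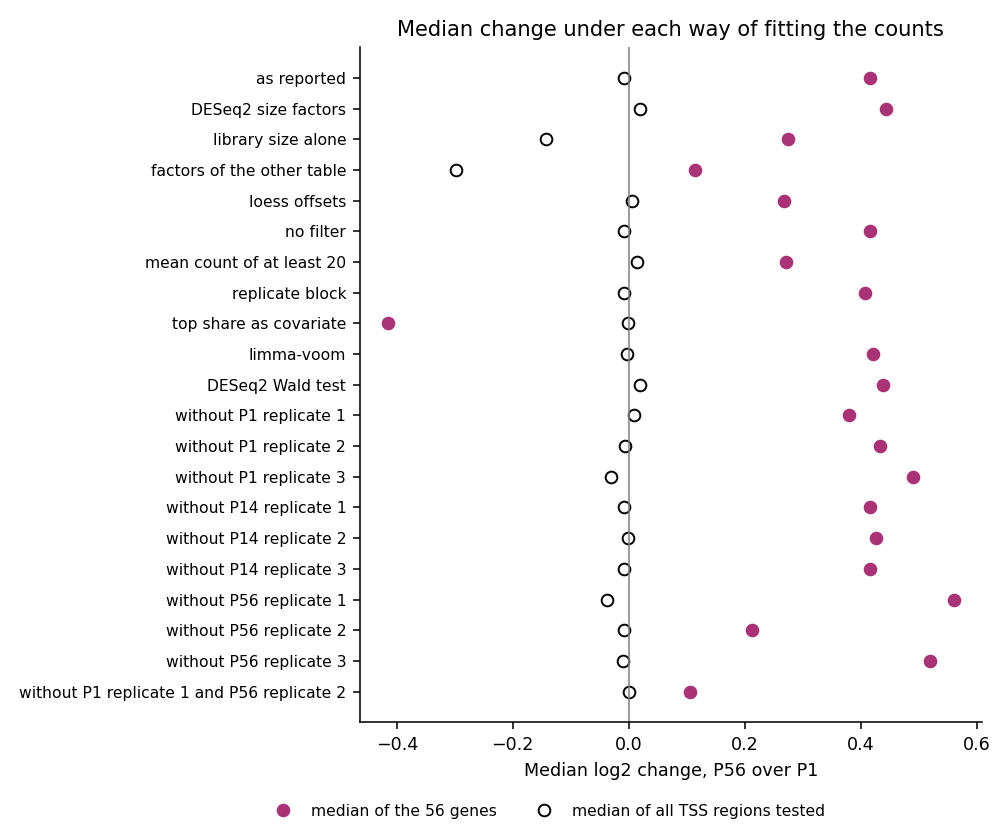
Median log2 change, P56 over P1 (x axis), of the 56 genes (filled) and of all TSS regions tested (open) under each way of fitting the counts (y axis). The median is 0.42 as reported, lies between 0.11 and 0.56 under the other settings but 1, and is -0.42 with the top share as a covariate.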

How the data were processed

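The authors deposited unnormalised read counts per TSS region and per peak for 9 libraries. Per the submitters' processing notes the build was GRCm38, and featureCounts 1.4.2, BWA 0.7.10, MACS 1.4.0, bcl2fastq 2.17.1.14, bedtools 2.26 and SAMtools 1.3.1 are named with no roles. Every deposited region had a mean of at least 10 counts. Both whole tables went into edgeR 4.0.16 under R 4.3.3, with TMM, filterByExpr, 1 coefficient per stage, quasi-likelihood F test, two-sided, Benjamini-Hochberg adjustment over all regions, threshold 0.05. Alternatives used DESeq2 1.42.0, limma 3.58.1 and the settings of the closing section. The fits were tested on simulated counts. Genes were named by rule: calls, the smallest p in each direction (6 for P56 with P1, 3 otherwise), the 4 highest and 3 lowest means, and a panel. The genes and lists were chosen with earlier results of these data known. Replicates came from separate heart pools per the labels. Gene positions and promoters came from RefSeq (GRCm38.p6). SD is over 3 libraries.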

Additional observations from a re-analysis of the deposited data

How the results depend on the processing

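The P56 with P1 count of 2 called genes was 0 at an adjusted p below 0.01, with the peak table's scaling factors, with loess offsets, with a mean count of at least 20 (51 genes remained) and with the top share as a covariate. It was 1 with library size alone and 1 with DESeq2, which gave no adjusted p for 36 of the genes, Mrpl4 among them. It was 0 to 5 when single libraries were left out, and 0 without both P1 replicate 1 and P56 replicate 2. With the replicate block it was 5 (Mrpl20, Mrps24 and Mrpl38 beside the 2). For the counts under these settings the share of all regions called is not given here. For each region the mean log CPM of the stage was subtracted, and the remaining deviations were correlated between libraries of different stages. For same-numbered libraries these correlations were -0.07 to 0.22 in the TSS table and -0.18 to 0.44 in the peak table. For differently numbered libraries they were -0.27 to 0.25 in the TSS table and -0.50 to 0.49 in the peak table. These ranges overlap, so they do not show if the numbers pair the libraries. The median of 0.42 was 0.12 with the peak table's factors (all regions -0.30), -0.42 with the top share as a covariate and 0.11 without both libraries. With single libraries left out it was 0.21 to 0.56. Library size alone moved the median of all regions to -0.14. With the top share as a covariate the medians were -0.43 for P14 with P1 and -0.010 for P56 with P14, and Mrps18a reversed to -0.45. The P56 with P14 count was 1 without P56 replicate 1 (range 0 to 1), and its median was 0.16 to 0.50 with single libraries left out. Peaks at the genes had 1 call for P56 with P1 (Mrpl48) and 1 for P14 with P1 (Mrpl34) without both libraries. The cause of these shifts was not tested. Of 614 values over 30 results, 559 were scored as unchanged, which for counts of calls allowed a small change in number. For other values it meant the same direction and side of the threshold. A gene not called in the reported fit kept its side by staying uncalled, so the total says little about the calls. Counts at P14 (median 17) limit both comparisons with that stage.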
